A study of Mus musculus with 9 samples.

Results

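Interferon-stimulated genes (ISGs) are the genes that cells switch on when interferon reaches them, and 49 of them were followed here in mouse alveolar macrophages lacking Vhl. The list was drawn up by symbol from well-known ISGs, with earlier results of these data known. Of the 49, 47 were matched among the 12003 genes of the deposited table. Mx2 and Ifi44 are not analysed here. Alveolar macrophages, which live in the air spaces of the lung, came from lavage fluid of untreated mice at steady state and were enriched with magnetic beads against CD11c. Poly(A) RNA was sequenced in 3 pools per genotype, each of 5 to 7 sex-matched C57BL/6 mice aged 8 to 12 weeks. Vhl knockout mice carried Vhl(flox/flox) with CD11c (cre/+). Floxed control mice carried Vhl(flox/flox) with CD11c (+/+), and Cre control mice carried Vhl(+/+) with CD11c (cre/+), so each control shared 1 of the 2 modifications with the knockout and neither lacked Vhl. Cre was driven by the promoter of CD11c, which dendritic cells also express, so deletion need not have been limited to macrophages. A pool averages several mice, and p-values measure the spread between pools.

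Type I interferons bind a receptor whose kinases, JAK1 and TYK2, phosphorylate STAT proteins. Together with IRF9 these form the complex ISGF3, which binds the interferon-stimulated response element (ISRE) in ISG promoters, while interferon gamma acts mainly at the gamma-activated site (GAS). ISG products block viral entry, translation, replication and release, and they are also present at a low baseline in uninfected tissue. Alveolar macrophages are known as an important early source of type I interferon in respiratory virus infection. VHL is the part of a ubiquitin ligase that recognises hypoxia-inducible factors when oxygen is present, so that they are degraded.

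The promoters of 6 members are shown because these genes share the response element yet differed in the knockout: Ifit1, Ifit3, Ifit3b, Isg15 and Gbp3 fell, and Gbp7, the neighbour of Gbp3, was not called. Each runs from 250 bases before to 50 bases after the gene start (RefSeq, GRCm38.p6), along the gene's own strand, and capitals mark every match to the ISRE core, a pair of GAAA blocks separated by any 2 bases, on either strand, with overlapping matches run together. Positions below are on GRCm38.
Ifit1, chr19:34640639-34640938, plus strand: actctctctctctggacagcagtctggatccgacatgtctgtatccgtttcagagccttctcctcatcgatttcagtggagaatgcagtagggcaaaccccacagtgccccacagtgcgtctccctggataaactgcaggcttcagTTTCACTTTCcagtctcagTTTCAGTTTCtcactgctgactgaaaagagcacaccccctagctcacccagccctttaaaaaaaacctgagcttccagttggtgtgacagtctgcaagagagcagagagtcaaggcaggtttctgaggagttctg
Ifit3, chr19:34583279-34583578, plus strand: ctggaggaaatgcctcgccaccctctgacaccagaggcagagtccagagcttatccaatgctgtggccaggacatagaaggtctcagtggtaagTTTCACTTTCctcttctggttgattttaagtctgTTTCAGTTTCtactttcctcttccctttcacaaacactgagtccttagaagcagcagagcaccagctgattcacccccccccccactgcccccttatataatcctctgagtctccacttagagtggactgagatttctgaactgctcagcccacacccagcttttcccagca
Ifit3b, chr19:34607707-34608006, plus strand: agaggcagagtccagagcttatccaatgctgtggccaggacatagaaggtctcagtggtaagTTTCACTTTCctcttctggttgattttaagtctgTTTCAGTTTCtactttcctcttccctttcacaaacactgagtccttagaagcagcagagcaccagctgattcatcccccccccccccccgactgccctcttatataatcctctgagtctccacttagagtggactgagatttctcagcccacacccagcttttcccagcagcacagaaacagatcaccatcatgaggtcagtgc
Isg15, chr4:156200769-156201068, minus strand: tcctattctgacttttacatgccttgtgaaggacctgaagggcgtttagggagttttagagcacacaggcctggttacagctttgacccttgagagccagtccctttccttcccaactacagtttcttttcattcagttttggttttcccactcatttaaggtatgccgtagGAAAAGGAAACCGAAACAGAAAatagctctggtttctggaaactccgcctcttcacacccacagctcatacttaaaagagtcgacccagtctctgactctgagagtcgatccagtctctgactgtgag
Gbp3, chr3:142559794-142560093, plus strand: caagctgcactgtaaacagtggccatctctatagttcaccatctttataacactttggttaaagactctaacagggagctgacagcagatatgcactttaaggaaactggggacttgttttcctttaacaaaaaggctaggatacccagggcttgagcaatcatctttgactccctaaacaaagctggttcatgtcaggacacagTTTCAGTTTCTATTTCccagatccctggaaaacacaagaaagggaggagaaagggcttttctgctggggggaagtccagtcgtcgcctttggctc
Gbp7, chr3:142530086-142530385, plus strand: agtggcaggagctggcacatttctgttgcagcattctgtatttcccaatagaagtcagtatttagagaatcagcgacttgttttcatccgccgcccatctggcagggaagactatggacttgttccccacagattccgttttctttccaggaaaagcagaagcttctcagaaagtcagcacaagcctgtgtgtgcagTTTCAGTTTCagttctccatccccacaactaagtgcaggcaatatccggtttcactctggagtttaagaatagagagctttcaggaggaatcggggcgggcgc
Ifit3 and Ifit3b carry the same pair of matches, at 156 and 122 bases before the start in Ifit3 and at 188 and 154 in Ifit3b. In Isg15, 3 overlapping matches begin 78, 72 and 66 bases before the start. Gbp3 has overlapping matches 45 and 39 bases before this start and none at its other annotated start, and Gbp7 has 1 match 53 bases before its start. Of the 47 measured members, 38 have a promoter in the table, and 21 of these (55.3%) hold the ISRE core, at any annotated start, against 3.99% of all 27025 genes in the table, counted the same way over promoters of the same length. The motif was present in 15 of the 25 members called lower (60%) and in 6 of the 13 not called lower (46.2%). GAS, as TTC and GAA separated by any 3 bases, which reads the same on both strands, was present in 10 of 38 members (26.3%), against 9.55% of all genes in the table. A match describes the letters in the window and shows neither binding nor cause.

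Libraries held 18201116 to 25861174 reads. Values are normalized reads, that is CPM further scaled by 1 normalization factor per library, with no correction for gene length, so they compare a gene between libraries and not 1 gene with another. Vhl itself was at 2.02, 2.14 and 2.52 normalized reads in Vhl knockouts, against 21, 14.9 and 18.4 in floxed controls and 24, 21.9 and 25.3 in Cre controls, which matches the labels. All 15 alveolar macrophage markers were measured, and their summed level was 38397 to 50928 in Vhl knockouts, 29632 to 33616 in floxed controls and 28653 to 33141 in Cre controls. A sum rests mostly on the most abundant genes. Against both controls together 6 of the 15 were called higher (40%), 4 lower (26.7%) and 5 not called (limma, adjusted p under 0.05). Over all genes 19.7% were higher and 20.2% lower. The log2 fold changes of these markers ran from -1.10 to 1.17, with a median of 0.10. Library 1 stood apart in every genotype. Its 7 measured neutrophil markers (of 8 listed) summed to 431 in Vhl knockout 1, 765 in floxed control 1 and 341 in Cre control 1, and to between 94.5 and 224 in the other 6 libraries. ISG results are therefore given with and without library 1 where it matters. Because these are bulk samples, fewer cells of a type and less RNA per cell cannot be told apart.

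In Vhl knockout macrophages, 30 of the 47 measured ISGs fell and 4 rose against both controls together (limma, adjusted p under 0.05), and 13 were not called. Over all 12003 genes 39.8% were called, 20.2% lower and 19.7% higher. Because members were chosen with earlier results of these data known, no test was run over the list. The median log2 fold change of the members was -0.48, and that of all genes was -0.002. Fitted values lay below 0 for 42 of 47 members, and all 10 members with a log2 fold change of -1 or lower were called. In 25 members (53.2%) every knockout library lay below every control library, which held for 18.5% of all genes. The genes that rose were Samhd1, Parp9, Slfn2 and Slfn8. Leaving out each library in turn, 19 members were called lower and 2, Samhd1 and Parp9, higher every time. In these fits 1821 to 2539 of all genes were lower and 1827 to 2435 higher. How many of all genes kept a call every time was not counted. With plain CPM, without the normalization factor, 34 members fell and 4 rose, while the calls over all genes shifted to 1925 higher and 2838 lower, against 2361 higher and 2420 lower with it.

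**Figure D1:**
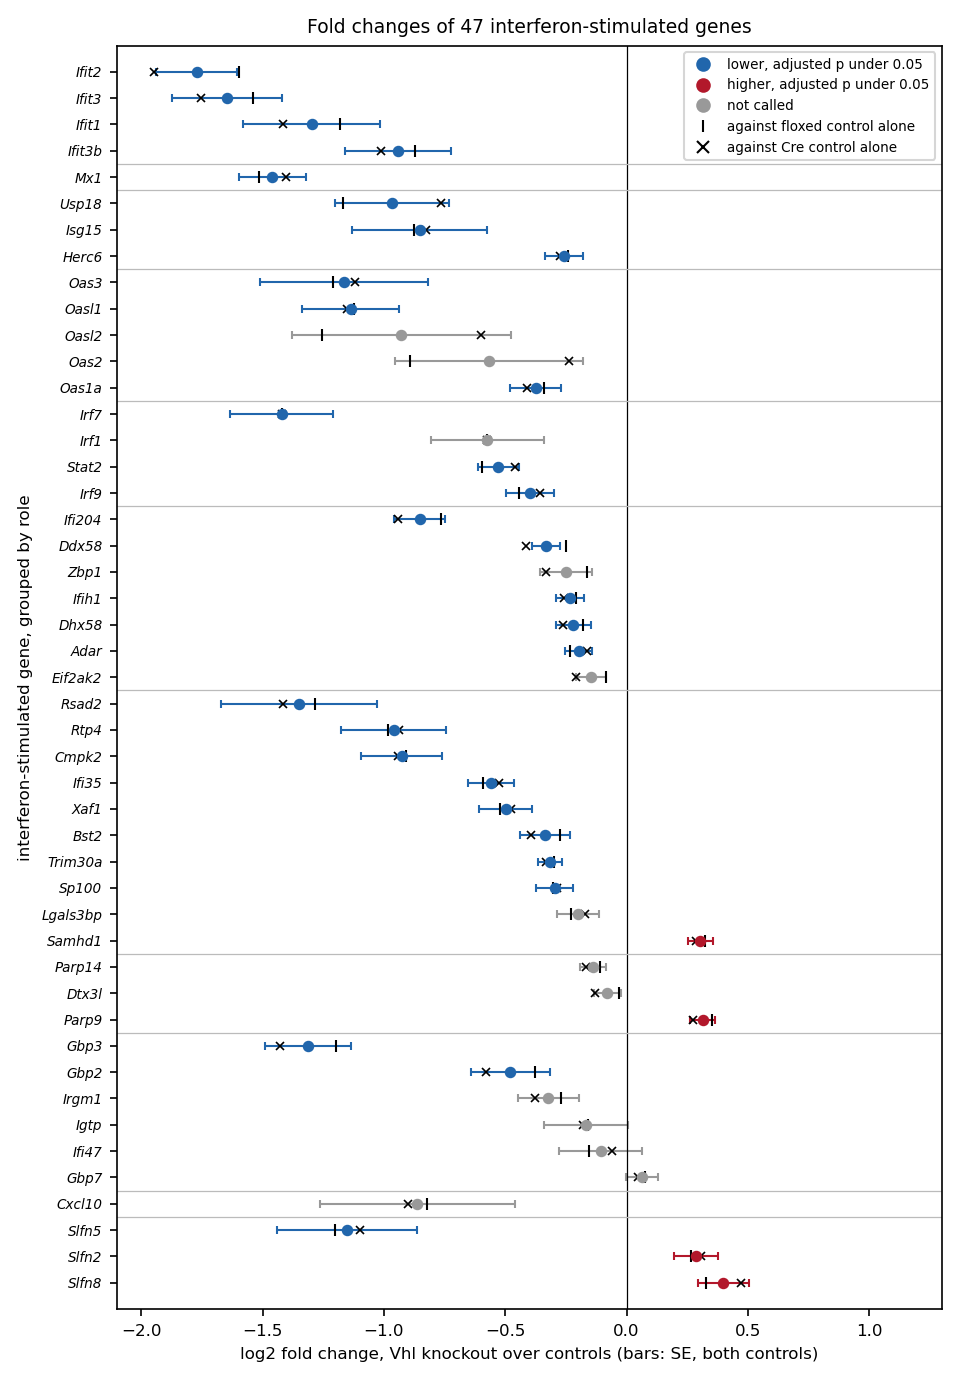
Log2 fold change of each of the 47 measured members in Vhl knockouts over both controls, with SE bars, grouped by role; ticks and crosses give the value against each control alone. Ifit2, Ifit3, Mx1, Irf7 and Rsad2 lie furthest to the left, 30 genes are called lower, and 4 lie to the right as called higher.

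Ifit2, Ifit3 and Mx1 had the lowest fold changes of the 47 members. IFIT proteins bind foreign RNA and block its translation, and all 4 measured members fell. Ifit2 (ENSMUSG00000045932, chromosome 19, 34550694 to 34576419, plus strand) had 1.24, 2.09 and 1.4 normalized reads in Vhl knockouts, against 6.9, 8.04 and 5.43 in floxed controls and 7.22, 8.53 and 11.2 in Cre controls. Knockout libraries lay at 20.0% of the control mean with no overlap (log2 fold change -1.77, SE 0.166, adjusted p = 2.33e-05). Ifit3 (ENSMUSG00000074896, chromosome 19, 34583531 to 34588731, plus strand) had 2.45, 1.12 and 1.0 normalized reads in Vhl knockouts, against 7.45, 7.27 and 4.14 in floxed controls and 6.85, 5.91 and 9.33 in Cre controls, and the groups again did not overlap (log2 fold change -1.65, SE 0.227, adjusted p = 0.000315). Its near-copy Ifit3b, at 0.643, 0.715 and 0.080 normalized reads in Vhl knockouts, against 2.5, 1.28 and 1.35 in floxed controls and 1.62, 1.57 and 2.71 in Cre controls, was low in every library and lowest in Vhl knockout 3, where 2 reads were counted, below the 3 that a count of 0 allows. It fell without overlap (log2 fold change -0.94, SE 0.219, adjusted p = 0.00682). Ifit1 had 2.4, 1.28 and 0.92 normalized reads in Vhl knockouts, against 8.26, 3.69 and 2.98 in floxed controls and 5.97, 4.13 and 6.9 in Cre controls, and its highest knockout library, number 1, was still below the lowest control (log2 fold change -1.30, SE 0.281, adjusted p = 0.00469). Transcripts of Ifit3 and Ifit3b share 46.6% and 40.5% of their 61-base stretches, the length of the reads, so how reads were divided between them is uncertain.

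Mx1 (ENSMUSG00000000386, chromosome 16, 97447035 to 97462907, minus strand) encodes a dynamin-like GTPase that blocks influenza virus in mice with an intact gene, whereas C57BL/6 mice are known to carry a deletion in it. It had 0.429, 0.868 and 0.56 normalized reads in Vhl knockouts, against 4.08, 2.87 and 3.94 in floxed controls and 3.01, 3.51 and 3.28 in Cre controls. All knockout libraries were under 1 normalized read and the lowest control was at 2.87, and the gene fell to 18% of the control mean (log2 fold change -1.46, SE 0.14, adjusted p = 2.78e-05). Leaving out any 1 library changed no call among these 5 genes.

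ISG15 is a ubiquitin-like protein that interferon-induced enzymes attach to other proteins, HERC6 is the mouse ligase for it, and USP18 removes it and restrains receptor signalling. All 3 genes fell against both controls. Usp18 had 1.33, 1.07 and 0.80 normalized reads in Vhl knockouts, against 6.36, 3.12 and 2.26 in floxed controls and 2.78, 1.99 and 2.77 in Cre controls, and every knockout value was below every control value (log2 fold change -0.97, SE 0.233, adjusted p = 0.00835). It was called against floxed controls (log2 fold change -1.17) and not against Cre controls (log2 fold change -0.76, adjusted p = 0.0522). Isg15 had 4.55, 2.45 and 2.0 normalized reads in Vhl knockouts, against 10.1, 6.3 and 3.37 in floxed controls and 6.67, 5.7 and 5.26 in Cre controls, with Vhl knockout 1 above floxed control 3 (log2 fold change -0.85, SE 0.278, adjusted p = 0.0338). Its call was lost when Vhl knockout 2 or 3, floxed control 2 or any of the 3 Cre controls was left out, with adjusted p between 0.0504 and 0.149 and log2 fold changes of -0.88 to -0.67. Herc6 moved little, at 21.9, 18.2 and 21.8 normalized reads in Vhl knockouts, against 23.5, 26.6 and 23.4 in floxed controls and 24.6, 25.3 and 25.5 in Cre controls, and its groups did not overlap (log2 fold change -0.26, SE 0.0771, adjusted p = 0.0232). Without Vhl knockout 2 its log2 fold change was -0.17 and the call was lost (adjusted p = 0.116).

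The OAS enzymes make the oligoadenylate that activates RNase L, and the OAS-like proteins are relatives of them. Of the 5 members 3 fell. Oasl1 had 1.97, 0.97 and 0.76 normalized reads in Vhl knockouts, against 5.27, 3.28 and 2.98 in floxed controls and 3.94, 4.34 and 3.28 in Cre controls, and no knockout library reached a control (log2 fold change -1.14, SE 0.201, adjusted p = 0.00145). Oas3 had 7.85, 3.83 and 2.28 normalized reads in Vhl knockouts, against 19.7, 9.62 and 6.88 in floxed controls and 13.3, 9.37 and 8.71 in Cre controls, where Vhl knockout 1 lay above floxed control 3 (log2 fold change -1.17, SE 0.345, adjusted p = 0.0222). Without Vhl knockout 2 or 3 the adjusted p of Oas3 was 0.0773 and 0.115. Oas1a had 21.9, 25.6 and 20.2 normalized reads in Vhl knockouts, against 31.5, 31.5 and 23.7 in floxed controls and 30.3, 28.5 and 31.8 in Cre controls, and Vhl knockout 2 overlapped floxed control 3 (log2 fold change -0.37, SE 0.106, adjusted p = 0.0179). Oas1a lost its call without Vhl knockout 1 (adjusted p = 0.0613) and without Vhl knockout 3 (0.0916), and 52.5% of its 61-base stretches also occur in Oas1g or Oas1b. 

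Oasl2 and Oas2 were not called, and in both library 1 was the highest of its genotype. Oasl2 had 12.6, 3.62 and 3.36 normalized reads in Vhl knockouts, against 31.4, 8.91 and 10.6 in floxed controls and 13.6, 6.8 and 7.4 in Cre controls, so that Vhl knockout 1 exceeded 4 control libraries of numbers 2 and 3 (log2 fold change -0.93, SE 0.451, adjusted p = 0.132). Oas2 had 4.5, 1.38 and 1.4 normalized reads in Vhl knockouts, against 8.97, 2.76 and 4.38 in floxed controls and 5.14, 1.62 and 2.2 in Cre controls, where library 1 was again the highest (log2 fold change -0.57, SE 0.388, adjusted p = 0.279). Without library 1 of every genotype both were called lower, Oasl2 with a log2 fold change of -1.05 (SE 0.129, adjusted p = 0.00026) and Oas2 with -0.60 (SE 0.188, adjusted p = 0.0354). Oasl2 was also called without Vhl knockout 1 alone (-1.46, adjusted p = 0.0251).

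Among the transcription factors, Irf7, Irf9 and Stat2 fell and Irf1 was not called. Irf7 (ENSMUSG00000025498, chromosome 7, 141262706 to 141266481, minus strand), which drives interferon alpha genes and is itself induced by ISGF3, had 7.16, 4.03 and 3.92 normalized reads in Vhl knockouts, against 20.2, 13.9 and 11.3 in floxed controls and 18.3, 12.3 and 14.1 in Cre controls. Every knockout library was below every control library although library 1 was highest within each genotype (log2 fold change -1.42, SE 0.213, adjusted p = 0.000522). Its log2 fold change was -1.42 against each control alone. Stat2 had 37.8, 38.3 and 36.1 normalized reads in Vhl knockouts, against 63.1, 47.7 and 61.8 in floxed controls and 52.5, 50.4 and 52.6 in Cre controls, and its knockout libraries lay within 36.1 to 38.3, below the lowest control of 47.7 (log2 fold change -0.53, SE 0.0843, adjusted p = 0.000784). Irf9, the DNA-binding subunit of ISGF3, had 22.7, 24.7 and 20.9 normalized reads in Vhl knockouts, against 37.3, 27 and 30.1 in floxed controls and 31.3, 28.2 and 28.7 in Cre controls, and the groups did not overlap (log2 fold change -0.40, SE 0.0984, adjusted p = 0.00924). Its call was lost without Vhl knockout 3 (log2 fold change -0.34, adjusted p = 0.0508). Irf1, a factor that interferon gamma induces, had 43, 26.9 and 19.5 normalized reads in Vhl knockouts, against 55.7, 33.3 and 41.6 in floxed controls and 50.9, 34.7 and 43.8 in Cre controls, and Vhl knockout 1 lay among the controls (log2 fold change -0.57, SE 0.233, adjusted p = 0.0761). Without Vhl knockout 1 the log2 fold change of Irf1 was -0.87 (adjusted p = 0.0105), and without library 1 of every genotype it was -0.71 (adjusted p = 0.00538).

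**Figure D2:**
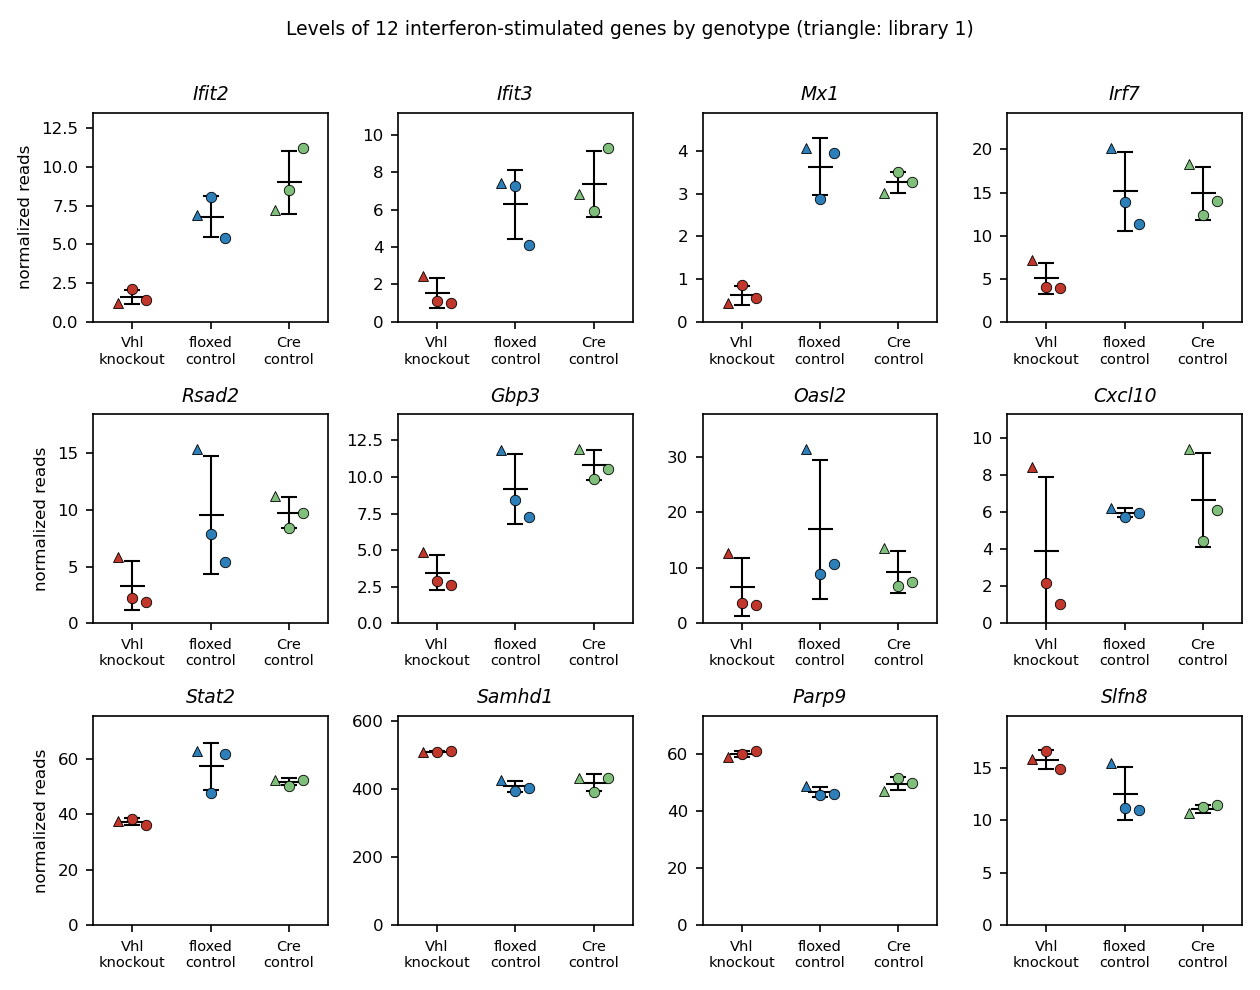
Normalized reads of 12 members in each library, by genotype; triangles are library 1, and bars are mean ± SD (n = 3 pools), drawn from 0 upward. Ifit2, Ifit3, Mx1, Irf7, Gbp3 and Stat2 do not overlap between Vhl knockouts and controls, Oasl2 and Cxcl10 are spread by library 1, and Samhd1 and Parp9 lie above all controls in Vhl knockouts.

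The cytosolic nucleic acid sensors moved by smaller amounts, and 5 of 7 fell. Ddx58, which encodes the RNA sensor RIG-I, had 43.3, 48.8 and 48.3 normalized reads in Vhl knockouts, against 53.5, 56.1 and 57.7 in floxed controls and 60.7, 62.1 and 65.2 in Cre controls, and its groups did not overlap (log2 fold change -0.33, SE 0.0567, adjusted p = 0.00116). Ifih1, which encodes the RNA sensor MDA5, had 44.8, 49.4 and 43.8 normalized reads in Vhl knockouts, against 52.8, 54.4 and 52.7 in floxed controls and 51.4, 56.5 and 57.6 in Cre controls, also without overlap (log2 fold change -0.23, SE 0.0586, adjusted p = 0.0101). Dhx58, which encodes their regulator LGP2, had 21.6, 22.9 and 22.3 normalized reads in Vhl knockouts, against 24.7, 26.1 and 25.2 in floxed controls and 30.4, 25 and 25.6 in Cre controls, a narrow gap between groups (log2 fold change -0.22, SE 0.0712, adjusted p = 0.0328). Ifi204, a DNA sensor of the PYHIN family, moved most, at 18, 13.7 and 17.4 normalized reads in Vhl knockouts, against 30.3, 31.5 and 23.9 in floxed controls and 31.3, 33 and 32.3 in Cre controls, and its knockout level was 54% of the control mean (log2 fold change -0.85, SE 0.106, adjusted p = 0.000164). Adar, the enzyme that edits adenosine to inosine in double-stranded RNA, had 52.9, 59.5 and 55.1 normalized reads in Vhl knockouts, against 67.7, 61.2 and 68.7 in floxed controls and 62.2, 62.2 and 63.2 in Cre controls, with all knockout values below all controls (log2 fold change -0.20, SE 0.0569, adjusted p = 0.0197). Without Vhl knockout 3, Ifih1 lost its call (log2 fold change -0.20, adjusted p = 0.0549). Adar lost it without Vhl knockout 1 (-0.16, adjusted p = 0.0938) or 3 (-0.19, adjusted p = 0.072), and Dhx58 without any 1 of the knockout libraries or floxed control 2, with adjusted p between 0.0622 and 0.113. Ifi204 shares 16.3% of its 61-base stretches with Ifi211, Mndal or Ifi207, and Adar shares 13.8% with Chrnb2, whose exons it overlaps. The genes not called were Zbp1, a sensor of Z-form nucleic acid that can start necroptosis, and Eif2ak2, the kinase PKR that halts translation. Zbp1 had 12, 10.01 and 12.2 normalized reads in Vhl knockouts, against 14.8, 13 and 11.1 in floxed controls and 15.8, 13.1 and 14.9 in Cre controls, where floxed control 3 lay inside the knockout range (log2 fold change -0.25, SE 0.107, adjusted p = 0.0909), and it was called only without floxed control 3 (log2 fold change -0.30, adjusted p = 0.0375) among the libraries left out. Eif2ak2 had 33.1, 37.4 and 36.1 normalized reads in Vhl knockouts, against 37.4, 35.8 and 40.01 in floxed controls and 38.9, 41.5 and 43.1 in Cre controls, with groups that overlapped (log2 fold change -0.15, SE 0.0631, adjusted p = 0.0931).

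Of the 10 measured restriction factors and other effectors, 8 fell, 1 rose and 1 was not called. Rsad2, which encodes viperin, an enzyme that makes a chain-terminating nucleotide against viral polymerases, had 5.83, 2.25 and 1.92 normalized reads in Vhl knockouts, against 15.4, 7.93 and 5.39 in floxed controls and 11.2, 8.42 and 9.72 in Cre controls. Only Vhl knockout 1 reached above a control, floxed control 3 (log2 fold change -1.35, SE 0.321, adjusted p = 0.00768). Its genomic neighbour Cmpk2, a mitochondrial nucleotide kinase, had 1.42, 1.17 and 0.88 normalized reads in Vhl knockouts, against 4.35, 2.76 and 2.26 in floxed controls and 3.01, 2.98 and 3.39 in Cre controls, with no overlap (log2 fold change -0.93, SE 0.166, adjusted p = 0.00155). Ifi35 had 23.5, 17.6 and 18.8 normalized reads in Vhl knockouts, against 31.5, 31.1 and 28.6 in floxed controls and 31.8, 27.9 and 27.3 in Cre controls, and the highest knockout library was below the lowest control (log2 fold change -0.56, SE 0.0937, adjusted p = 0.00105). Rtp4, a chaperone that also inhibits flaviviruses, had 2.32, 1.33 and 1.64 normalized reads in Vhl knockouts, against 6.85, 3.58 and 3.37 in floxed controls and 5.65, 3.56 and 3.73 in Cre controls, again with no overlap (log2 fold change -0.96, SE 0.216, adjusted p = 0.00577). Xaf1, a pro-apoptotic partner of XIAP, had 2.66, 2.55 and 3.04 normalized reads in Vhl knockouts, against 5.0, 3.94 and 4.23 in floxed controls and 4.58, 3.87 and 4.18 in Cre controls, and all knockout values were the lower ones (log2 fold change -0.50, SE 0.108, adjusted p = 0.00482).

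Trim30a, a negative regulator of Toll-like receptor signalling, had 68, 66.7 and 68.9 normalized reads in Vhl knockouts, against 88.1, 80.6 and 83 in floxed controls and 83.7, 90.04 and 83.7 in Cre controls. This was a small fall with little spread (log2 fold change -0.32, SE 0.0493, adjusted p = 0.000665). Sp100, a nuclear body protein, had 26.8, 26.3 and 26.4 normalized reads in Vhl knockouts, against 36.8, 31.2 and 31.3 in floxed controls and 34.5, 29.4 and 34.1 in Cre controls, and its groups did not overlap (log2 fold change -0.30, SE 0.0756, adjusted p = 0.011), although without library 1 of every genotype the adjusted p was 0.0542 (log2 fold change -0.25). Bst2, which encodes tetherin, a protein that holds budding virions on the cell surface, had 26.7, 28.2 and 24.7 normalized reads in Vhl knockouts, against 38.9, 32.3 and 26.7 in floxed controls and 34.1, 37.2 and 34.1 in Cre controls, where floxed control 3 lay within the knockout range (log2 fold change -0.33, SE 0.103, adjusted p = 0.0265). Its call was lost without Vhl knockout 1 (adjusted p = 0.0672), Vhl knockout 3 (0.113) or Cre control 2 (0.0545). Lgals3bp, a secreted glycoprotein, was not called. It had 265, 265 and 255 normalized reads in Vhl knockouts, against 333, 335 and 258 in floxed controls and 278, 287 and 323 in Cre controls, and floxed control 3 alone lay at the knockout level (log2 fold change -0.20, SE 0.0872, adjusted p = 0.0945). Without floxed control 3 it was called lower (log2 fold change -0.26, adjusted p = 0.00599).

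Samhd1 (ENSMUSG00000027639, chromosome 2, 157097533 to 157135265, minus strand) encodes a phosphohydrolase that depletes deoxynucleotides and so restricts retroviruses in myeloid cells, and it went the other way. It had 509.5, 511 and 514 normalized reads in Vhl knockouts, against 427, 394 and 405 in floxed controls and 433, 392 and 434 in Cre controls. All knockout libraries lay above all controls, and the gene rose (log2 fold change 0.30, SE 0.0527, adjusted p = 0.00127). It was called higher against each control alone and with any 1 library left out.

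Parp9 (ENSMUSG00000022906, chromosome 16, 35938470 to 35972605, plus strand) and Dtx3l (ENSMUSG00000049502, chromosome 16, 35926511 to 35939151, minus strand) encode partners in a ubiquitin ligase and lie next to each other. Parp9 rose and Dtx3l was not called. Parp9 had 59.2, 59.98 and 61.2 normalized reads in Vhl knockouts, against 48.9, 45.6 and 46.2 in floxed controls and 47.1, 51.7 and 49.9 in Cre controls, with every knockout library above every control (log2 fold change 0.31, SE 0.0507, adjusted p = 0.000844). Dtx3l had 60.3, 67.6 and 58.9 normalized reads in Vhl knockouts, against 64.8, 62.9 and 63.1 in floxed controls and 65.6, 69.95 and 68.6 in Cre controls, with overlap (log2 fold change -0.08, SE 0.0554, adjusted p = 0.283). Their exons overlap by 458 bases on opposite strands, and no source used here gives the strand setting of the counting. Parp14, another member of the ADP-ribosyltransferase family, had 76.7, 85.2 and 83.9 normalized reads in Vhl knockouts, against 88.8, 88 and 88.1 in floxed controls and 86.6, 92.4 and 97.7 in Cre controls. Its knockout libraries were all below the controls, but the difference did not pass (log2 fold change -0.14, SE 0.0545, adjusted p = 0.0696), and it did so among the libraries left out only without Cre control 1 (log2 fold change -0.16, adjusted p = 0.0396).

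The interferon-inducible GTPases split between Gbp3 and Gbp2, which fell, and 4 genes that were not called. Guanylate-binding proteins (Gbp) and immunity-related GTPases attack the vacuoles of intracellular pathogens, and many respond to interferon gamma. Gbp3 (ENSMUSG00000028268, chromosome 3, 142560026 to 142573209, plus strand) had 4.85, 2.91 and 2.64 normalized reads in Vhl knockouts, against 11.8, 8.45 and 7.26 in floxed controls and 11.9, 9.89 and 10.6 in Cre controls. The groups did not overlap, and the knockout mean was 34.7% of the control mean (log2 fold change -1.31, SE 0.178, adjusted p = 0.000281). Gbp7 (ENSMUSG00000040253, chromosome 3, 142530342 to 142550149, plus strand), with its ISRE core shown above, had 64.7, 58.1 and 69.5 normalized reads in Vhl knockouts, against 59.5, 59.2 and 63.4 in floxed controls and 64.9, 57.8 and 62.9 in Cre controls, and the groups were interleaved (log2 fold change 0.06, SE 0.0661, adjusted p = 0.496). The 2 genes share few 61-base stretches, 2.9% of those of Gbp3. Gbp2 had 42, 26.5 and 25.1 normalized reads in Vhl knockouts, against 46.3, 40.9 and 33.2 in floxed controls and 49.8, 39.9 and 48.4 in Cre controls, with Vhl knockout 1 among the controls (log2 fold change -0.48, SE 0.163, adjusted p = 0.0399). Gbp2 lost its call in the edgeR test on recovered reads (log2 fold change -0.46, adjusted p = 0.0594). It also lost it without Vhl knockout 2 or 3, floxed control 1 or 2, or Cre control 1 or 3, with adjusted p of 0.0623 to 0.182 and log2 fold changes of -0.47 to -0.35.

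Irgm1, a regulator of the other immunity-related GTPases and of autophagy, had 28.5, 21.1 and 18.7 normalized reads in Vhl knockouts, against 31.9, 25.7 and 24.7 in floxed controls and 29.3, 28.4 and 30.6 in Cre controls, where Vhl knockout 1 lay among the controls (log2 fold change -0.32, SE 0.125, adjusted p = 0.0653). It was called lower without Vhl knockout 1 (log2 fold change -0.49, adjusted p = 0.0066) and without library 1 of every genotype (-0.44, adjusted p = 0.0049). Igtp had 19.9, 14.5 and 12.4 normalized reads in Vhl knockouts, against 21.7, 15.1 and 15.7 in floxed controls and 20.9, 13.9 and 18.5 in Cre controls, and library 1 was highest in each genotype (log2 fold change -0.17, SE 0.173, adjusted p = 0.478). Ifi47 had 14.4, 10.4 and 9.0 normalized reads in Vhl knockouts, against 15.2, 11.7 and 10.8 in floxed controls and 14.8, 9.31 and 11.2 in Cre controls. Library 1 was again highest in each genotype (log2 fold change -0.11, SE 0.172, adjusted p = 0.657). Neither Igtp nor Ifi47 was called with any 1 library left out, and without Vhl knockout 3 the log2 fold change of Ifi47 was 0.03 (adjusted p = 0.932).

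Cxcl10, the only chemokine of the list, recruits CXCR3-bearing T and NK cells. It had 8.45, 2.2 and 1.04 normalized reads in Vhl knockouts, against 6.25, 5.73 and 5.96 in floxed controls and 9.4, 4.45 and 6.1 in Cre controls, and the knockout libraries ran from the lowest value of all 9 libraries to the second highest (log2 fold change -0.86, SE 0.401, adjusted p = 0.116). Without Vhl knockout 1 the log2 fold change was -1.49 (SE 0.244, adjusted p = 0.00173), and without library 1 of every genotype it was -1.35 (SE 0.202, adjusted p = 0.000836).

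The 3 Schlafen genes, which encode regulators of lymphoid and myeloid growth and of translation, went in both directions. Slfn5 had 6.13, 2.91 and 2.0 normalized reads in Vhl knockouts, against 13.8, 6.5 and 8.22 in floxed controls and 10.2, 6.28 and 9.04 in Cre controls, and no knockout library reached a control (log2 fold change -1.15, SE 0.289, adjusted p = 0.0102), although the call was lost without Vhl knockout 3 (log2 fold change -0.88, adjusted p = 0.0571). Slfn8 had 15.9, 16.6 and 14.9 normalized reads in Vhl knockouts, against 15.4, 11.2 and 11 in floxed controls and 10.7, 11.2 and 11.4 in Cre controls, where floxed control 1 lay within the knockout range (log2 fold change 0.40, SE 0.106, adjusted p = 0.0135). Without Vhl knockout 2 its log2 fold change was 0.36 (adjusted p = 0.0619), and 10.4% of its 61-base stretches occur in Slfn9 or Slfn10-ps. Slfn2, which maintains quiescence in T cells and monocytes, had 289, 234 and 242 normalized reads in Vhl knockouts, against 217, 238 and 184 in floxed controls and 211, 201 and 203 in Cre controls, with floxed control 2 inside the knockout range (log2 fold change 0.29, SE 0.0888, adjusted p = 0.0274). Its call was lost without Vhl knockout 1 (log2 fold change 0.19, adjusted p = 0.13), Vhl knockout 3 (adjusted p = 0.0508), Cre control 2 (0.0527) or Cre control 3 (0.0535), and without library 1 of every genotype (0.12).

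Each control alone gave fewer calls. Against floxed controls 24 members fell and 2 rose, where 34.3% of all genes were called, 16.8% lower and 17.5% higher. Against Cre controls 26 fell and 4 rose, where 34% of all genes were called, 17.7% lower and 16.3% higher. The knockout libraries enter both comparisons, so these counts are not independent. Of the members, 21 were called lower and 2 higher in both, which was not counted over all genes. The counts against each control also rested on single libraries. Against floxed controls 15 members fell and 2 rose without Vhl knockout 3, where 1488 of all 12003 genes fell and 1610 rose. Against Cre controls 16 members fell and 3 rose without Vhl knockout 3, where 1535 of all genes fell and 1538 rose. The same member numbers came without Cre control 3, where 1495 of all genes fell and 1557 rose. With all libraries, Herc6, Oas1a, Dhx58, Bst2 and Gbp2 were called lower against Cre controls and not against floxed controls. The reverse held for Usp18, Oas3 and Adar. Slfn2 and Slfn8 were called higher against Cre controls and not against floxed controls, at a log2 fold change of 0.31 and 0.47, against 0.26 and 0.33 with floxed controls. Whether these fold changes depend on the control is the difference between the controls themselves, and it was not called for any of them. Between Cre and floxed controls 0 of 47 members were called by limma or by edgeR, against 0.167% of all genes with limma, 0.0667% higher and 0.1% lower. At an unadjusted p under 0.05, 1 of the 47 members, Ddx58, and 961 of all 12003 genes passed (Ddx58 log2 fold change 0.17). The median log2 fold change of members between the controls was 0.03.

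**Figure D3:**
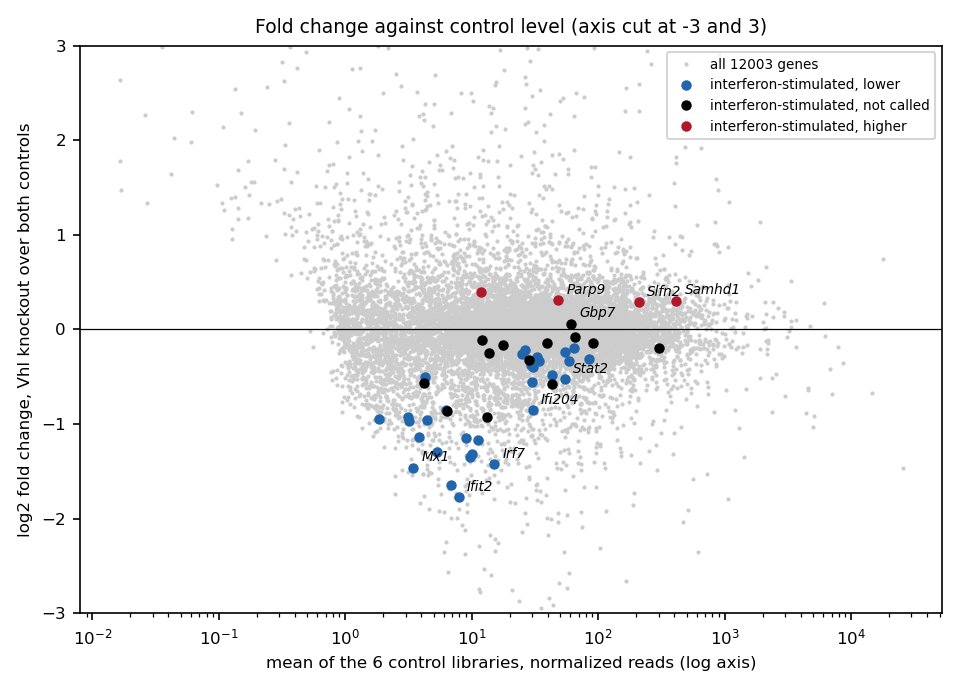
Log2 fold change of each gene in Vhl knockouts over both controls, on a linear axis, against its mean normalized reads in the 6 control libraries, on a log axis; members are coloured by call, all genes are grey, and genes beyond -3 or 3 are not shown. Members with few reads in controls sit lowest, and the grey cloud shows no such slope.

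Members with fewer reads in controls had the lower fold changes. Of the 16 members with a control mean under 10 normalized reads, 14 fell, with a median log2 fold change of -1.05. Of the 31 at 10 or more, 16 fell and 4 rose, with a median of -0.26. Among all genes, 15.9% of 3436 genes under 10 were lower, with a median of 0.005, and 21.9% of those at 10 or more. Spearman's rho between fold change and control level was 0.70 over the 47 members and -0.03 over all genes. The control values enter both measures and the levels are not per length, so this describes these libraries only. Because folds are on the log2(value + 1) scale, those of low genes are understated.

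**Figure D4:**
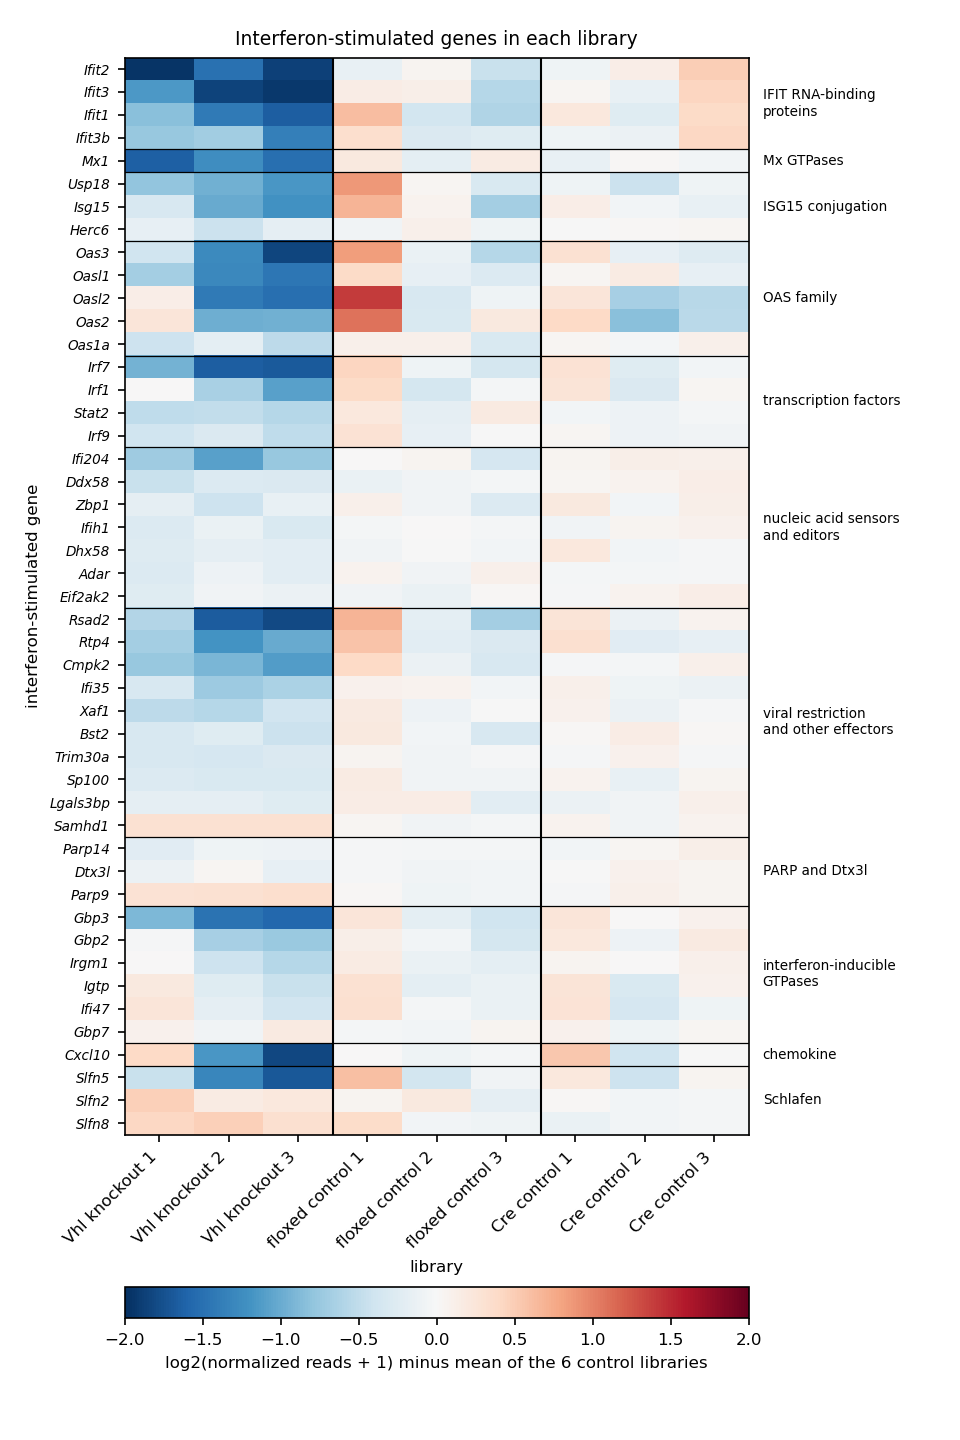
Heat map of the 47 members (down the page, by role) in each of the 9 libraries (across); colour is log2(normalized reads + 1) minus the mean of the 6 control libraries, blue for lower and red for higher. Medians over the members lie at -0.31, -0.49 and -0.57 in Vhl knockouts 1 to 3, and between -0.09 and 0.17 in the 6 control libraries.

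Members shared a pattern across library numbers as well as across genotypes. The median difference of the members from the control mean, on the log2(value + 1) scale, was -0.31, -0.49 and -0.57 in Vhl knockouts 1, 2 and 3, against 0.17, -0.07 and -0.09 in floxed controls and 0.05, -0.07 and 0.04 in Cre controls. Library 1 was the highest of its genotype in all 3 genotypes for 17 members (36.2%), among them Isg15, Irf7, Rsad2, Oas3 and Cxcl10, against 8.76% of all genes. In the same libraries 1 the neutrophil markers summed higher, as given above, and their part in this pattern was not tested. Compared only with controls of its own number, the knockout library was below both for 41 of the 47 members at number 1. It was below both for 38 of 47 at number 2 and 41 of 47 at number 3, a large majority each time. Over all genes this held for a minority, 41.9%, 41.4% and 37.5%. Without library 1 of every genotype 30 members were called lower and 3 higher. In that fit 2195 of all genes (18.3%) were lower and 2069 higher. With and without library 1, 25 members were called lower both times, which was not counted over all genes. Cxcl10, Irf1, Irgm1, Oas2 and Oasl2 gained a call, and Adar, Bst2, Dhx58, Oas1a, Sp100 and Slfn2 lost theirs.

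**Figure D5:**
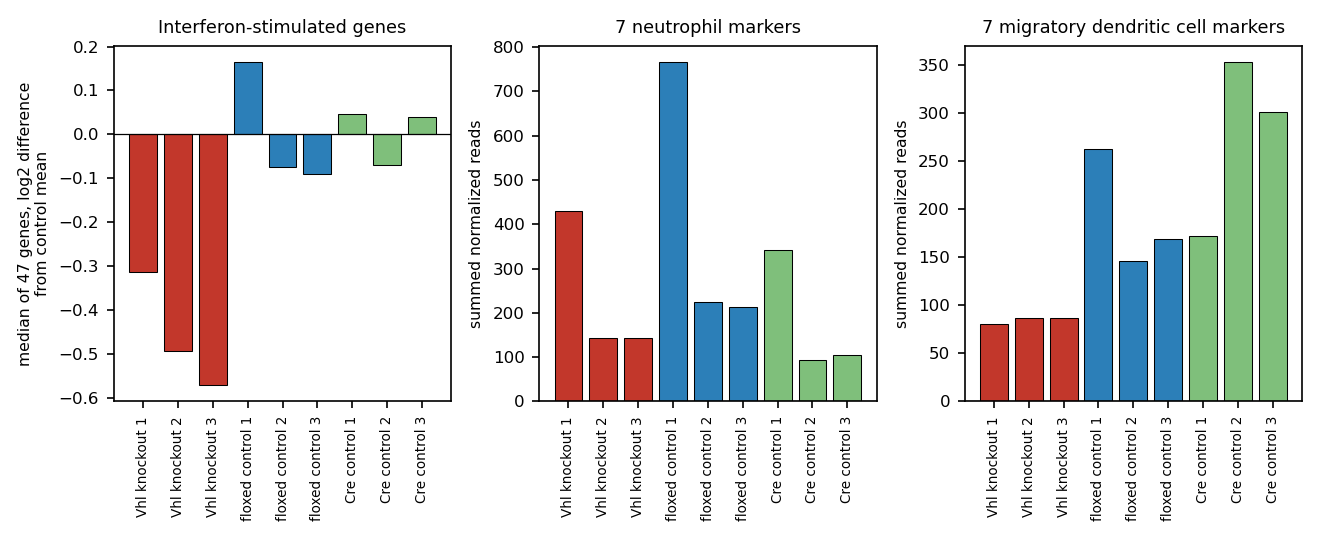
Bars give, for each library, the median log2 difference of the 47 members from the control mean (left), and the summed normalized reads of 7 neutrophil markers (middle) and 7 migratory dendritic cell markers (right). Neutrophil sums are highest in library 1 of each genotype, and sums of migratory dendritic cell markers are lowest in the 3 Vhl knockout libraries.

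Dendritic cells also carry CD11c and are recovered by the same beads. Markers of migratory and conventional dendritic cells were lower in the knockout. Unless a single control is named, calls on markers below are against both controls together, where 20.2% of all genes were lower and 19.7% higher. The 7 measured markers of migratory dendritic cells (of 8 listed) summed to 80.4, 87.0 and 87.0 normalized reads in Vhl knockouts, against 263, 146 and 169 in floxed controls and 172, 353 and 302 in Cre controls, and 6 of the 7 fell. All 8 conventional dendritic cell markers fell, with sums of 10.2 to 12.1 in Vhl knockouts, 27.4 to 58.5 in floxed controls and 28.4 to 42.3 in Cre controls. Plasmacytoid dendritic cells are known for making much interferon, and 6 of their 7 listed markers summed to 13.5 to 18 in Vhl knockouts, 17.8 to 30.9 in floxed controls and 15.3 to 17.9 in Cre controls, with 2 called lower. These knockout sums overlapped those of both controls. The median log2 fold change of the 6 was -0.90 against floxed controls and 0.18 against Cre controls. Interstitial macrophage markers (6 of 8 measured) summed to 18.4 to 28.6 in Vhl knockouts, 34.8 to 67.8 in floxed controls and 24.6 to 33.2 in Cre controls, and 4 were lower. Against floxed controls alone 4 of the 6 were lower (16.8% of all genes), with a median log2 fold change of -0.90. Against Cre controls alone 0 were lower (17.7% of all genes), with a median of -0.14. Defining T, NK and B cell markers (Cd3e, Cd3d, Cd3g, Ncr1, Nkg7, Klrd1, Cd79a, Cd79b and Ms4a1) are not analysed here, and Ly6d, a plasmacytoid marker, and Ly6c2, a monocyte marker, were at 0 in at least 1 library. The 2 measured B cell markers, Igkc and Ighm, summed to 11.3 to 20.3 in Vhl knockouts, 7.22 to 73.3 in floxed controls and 1.36 to 3.45 in Cre controls, with 1 higher. The 3 measured T and NK cell markers, Cd2, Cd4 and Cd8a, summed to 161 to 177 in Vhl knockouts, 176 to 197 in floxed controls and 202 to 249 in Cre controls, with 1 lower. Monocyte and lung epithelial marker sums were higher in all knockout libraries than in all controls. All 8 monocyte markers summed to 286 to 304 in Vhl knockouts, 181 to 209 in floxed controls and 173 to 211 in Cre controls, with Ace, Ccr2, F13a1 and Vcan higher and Cd300e and Treml4 lower. The 12 measured lung epithelial markers (of 15 listed) summed to 1086 to 1139 in Vhl knockouts, 606 to 880.2 in floxed controls and 628 to 922 in Cre controls, with Cdh1 and Krt19 higher and Epcam, Scgb3a2 and Sftpa1 lower; these markers were named after their values were seen. The part of these cells in the fall of the ISGs was not tested.

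Upstream of the ISGs, interferon receptors and Janus kinases went both ways, with 5 of 9 lower (55.6%) and 2 higher (22.2%). Over all genes 20.2% were lower and 19.7% higher, so the share higher was near that of all genes. Jak2, a kinase of the interferon gamma receptor, had 57.4, 51.9 and 59.9 normalized reads in Vhl knockouts, against 100.2, 75.1 and 78.4 in floxed controls and 68.5, 92.2 and 80.5 in Cre controls, without overlap (log2 fold change -0.53, SE 0.111, adjusted p = 0.00374). Ifngr2, the signalling chain of that receptor, had 55.6, 58.2 and 48.4 normalized reads in Vhl knockouts, against 86, 70.3 and 66.7 in floxed controls and 67.2, 81.1 and 77.9 in Cre controls, also lower in all knockout libraries (log2 fold change -0.46, SE 0.0964, adjusted p = 0.00391). Its ligand-binding chain, Ifngr1, rose, at 201, 188 and 199 normalized reads in Vhl knockouts, against 157, 171 and 147 in floxed controls and 161, 152 and 158 in Cre controls, above all controls (log2 fold change 0.31, SE 0.0559, adjusted p = 0.00148). Il10rb, a chain shared by the receptors for interferon lambda and interleukin 10, rose as well (log2 fold change 0.36, SE 0.0895, adjusted p = 0.00965), a call lost without Vhl knockout 1 (log2 fold change 0.29, adjusted p = 0.0501). Tyk2 fell slightly (log2 fold change -0.21, SE 0.0514, adjusted p = 0.00831). Of the 2 chains of the type I receptor, Ifnar1, named here after its values were seen, had 46.7, 48.1 and 48.2 normalized reads in Vhl knockouts, against 56.9, 52.8 and 52.6 in floxed controls and 48.8, 54.3 and 53.5 in Cre controls. All knockout libraries were below all controls (log2 fold change -0.15, SE 0.0542, adjusted p = 0.0483). The Ifnar1 call was lost when any 1 of the Vhl knockouts, floxed control 1 or 2, or Cre control 2 or 3 was left out, with adjusted p of 0.0605 to 0.148 and log2 fold changes of -0.16 to -0.13. The other chain, Ifnar2, and the kinase Jak1 were not called (log2 fold change -0.07, SE 0.0593, adjusted p = 0.399 for Ifnar2, and log2 fold change -0.07, SE 0.0523, adjusted p = 0.303 for Jak1). The 9 listed interferon genes themselves are not analysed here.

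Among further STAT and IRF genes, Irf5, Irf8 and Stat3 fell. Irf5, which drives inflammatory cytokines below Toll-like receptors, had 29.5, 30.2 and 28 normalized reads in Vhl knockouts, against 117, 91.1 and 86.8 in floxed controls and 89.9, 98 and 89.1 in Cre controls. The highest knockout library, at 30.2, was well under the lowest control, at 86.8 (log2 fold change -1.67, SE 0.0897, adjusted p = 4.63e-07). Irf8, a factor of macrophage and dendritic cell identity, had 103, 103 and 99.2 normalized reads in Vhl knockouts, against 136, 126 and 121 in floxed controls and 130.1, 134 and 129.6 in Cre controls, without overlap (log2 fold change -0.34, SE 0.049, adjusted p = 0.000383). The fall of Stat3 was small (log2 fold change -0.17, SE 0.0415, adjusted p = 0.00766). Irf2 and Irf3 were not called. Irf3, which starts interferon beta transcription, had a log2 fold change of 0.17 (SE 0.0618, adjusted p = 0.0573), and was called higher without floxed control 3 (adjusted p = 0.0431) or Cre control 1 (0.0494).

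Of 14 receptors and adaptors for nucleic acid 10 fell (71.4%) and 0 rose, where 20.2% of all genes were lower and 19.7% higher. Ikbke, a kinase that activates IRF3 and IRF7, had 5.88, 7.3 and 6.0 normalized reads in Vhl knockouts, against 20.9, 22.6 and 15.1 in floxed controls and 11.3, 23.3 and 22.7 in Cre controls. All knockout libraries were below all controls (log2 fold change -1.42, SE 0.215, adjusted p = 0.000554). Cgas, the cytosolic DNA sensor, had 10.9, 15.2 and 12.2 normalized reads in Vhl knockouts, against 24.2, 23.4 and 22.7 in floxed controls and 21.5, 25 and 21.3 in Cre controls, also without overlap (log2 fold change -0.81, SE 0.0987, adjusted p = 0.000141). Tlr7, an endosomal sensor of single-stranded RNA, and Unc93b1, which carries endosomal Toll-like receptors, fell too (log2 fold change -0.43, SE 0.0749, adjusted p = 0.00127 for Tlr7, and log2 fold change -0.32, SE 0.0538, adjusted p = 0.00109 for Unc93b1). Tmem173, which encodes STING, the adaptor below cGAS, was not called (log2 fold change 0.10, SE 0.0663, adjusted p = 0.28), nor were Tlr3 and Ticam1. Of 8 negative regulators 3 fell (37.5%) and 0 rose, against the same 20.2% and 19.7% of all genes. Those that fell were the phosphatases Ptpn1 (log2 fold change -0.66, SE 0.0969, adjusted p = 0.000449) and Ptpn6 (log2 fold change -0.46, SE 0.0601, adjusted p = 0.000219) and the DNA exonuclease Trex1 (log2 fold change -0.40, SE 0.0896, adjusted p = 0.00553). Ptpn2, Ptpn11 and Pias1 were not called, and Ptpn2 was called higher without floxed control 2 (log2 fold change 0.18, adjusted p = 0.0467) or Cre control 2 (0.18, adjusted p = 0.0362).

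A wider list of 79 other ISGs, of which 71 were measured, had 31 lower (43.7%) and 9 higher (12.7%). Over all genes 20.2% were lower and 19.7% higher, so rises were less frequent in this list than among all genes. Nlrc5, the activator of MHC class I genes, had 6.05, 4.34 and 3.6 normalized reads in Vhl knockouts, against 20.2, 17 and 18 in floxed controls and 14.4, 14.6 and 13.1 in Cre controls. The highest knockout library was at 6.05 and the lowest control at 13.1 (log2 fold change -1.61, SE 0.127, adjusted p = 7.3e-06). Mlkl, which executes necroptosis, had 4.03, 4.39 and 3.24 normalized reads in Vhl knockouts, against 9.95, 13.2 and 10.5 in floxed controls and 11.4, 11.8 and 13.8 in Cre controls, without overlap (log2 fold change -1.39, SE 0.118, adjusted p = 1.24e-05), and Gbp8 had 7.21, 7.04 and 7.16 normalized reads in Vhl knockouts, against 17.1, 15 and 20.6 in floxed controls and 18.2, 20.4 and 16.4 in Cre controls, likewise (log2 fold change -1.21, SE 0.104, adjusted p = 1.27e-05). Trafd1 also fell (log2 fold change -0.70, SE 0.0647, adjusted p = 2.22e-05). Among those that rose, Tmem140 had 49.2, 58.6 and 48.7 normalized reads in Vhl knockouts, against 32.7, 30.3 and 28.9 in floxed controls and 34.4, 31.5 and 36.3 in Cre controls, above all controls (log2 fold change 0.67, SE 0.0776, adjusted p = 0.0001), and Ly6e, which blocks entry of coronaviruses, had 547, 487 and 482 normalized reads in Vhl knockouts, against 386, 361 and 328 in floxed controls and 385, 339 and 342 in Cre controls, likewise (log2 fold change 0.50, SE 0.0721, adjusted p = 0.000409). Ifi203 and Mndal, which are relatives of Ifi204 on chromosome 1, rose where Ifi204 fell (log2 fold change 0.50, SE 0.0647, adjusted p = 0.000197 for Ifi203, and log2 fold change 0.45, SE 0.0826, adjusted p = 0.00179 for Mndal). Tdrd7 rose too (log2 fold change 0.35, SE 0.0575, adjusted p = 0.000955).

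Of the 9 rises in the wider list, those of Pml, Ube2l6, Trim25 and Shisa5 depended on single libraries. Pml lost its call without Vhl knockout 2 (log2 fold change 0.28, adjusted p = 0.0642), as did Ube2l6, the conjugating enzyme for ISG15 (0.19, adjusted p = 0.0885). Trim25, a ligase acting on RIG-I, lost it without Vhl knockout 2 (0.29, adjusted p = 0.0563) or 3 (0.24, adjusted p = 0.0868). Shisa5 lost it without any 1 of the knockout libraries, floxed control 1 or Cre control 2, with adjusted p of 0.0501 to 0.104. Ogfr, Il15 and Irgm2 were not called, with log2 fold changes of -0.17, 0.35 and -0.32. Ogfr was called lower without floxed control 3 (adjusted p = 0.0175), and Il15, which sustains NK and memory T cells, was called higher without floxed control 1 (log2 fold change 0.42, adjusted p = 0.0204).

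Members lie on 15 chromosomes, with 11 on chromosome 11, which holds the immunity-related GTPase and Schlafen genes, 6 on chromosome 5 with the OAS genes, and all 4 IFIT genes on chromosome 19. Sequence shared with other genes limits some counts. Over 10% of the 61-base stretches of 9 members occur in another gene, and under 1% in 17 members. Besides those named above, Herc6 and Gbp7 share 12% each and Rtp4 11.1%. Exons of 6 members overlap those of another measured gene, among them Igtp with Irgm2 over 162 bases on the same strand.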

How the data were processed

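Reads came from CASAVA 1.8.2, cutadapt 1.3 and RSEM 1.2.3 on GRCm38, per the submitters' processing notes; no source used here gives the annotation or the later steps. The deposited signal is a whole number of reads times 1 factor per library, found from the values (100% whole within 0.01 read), so 1 read is worth 0.0400 to 0.0565 normalized reads and the limit that a 0 sets is 3 reads (0.120 to 0.170 normalized reads), for counting error only. The authors' table had been filtered, each gene reaching 0.962 in at least 3 libraries. Because it holds scaled values and not counts, limma 3.58.1 (R 4.3.3, empirical Bayes with an intensity trend) was fitted to log2(value + 1) over all 9 libraries with 1 mean per genotype. Tests were two-sided, with Benjamini-Hochberg adjustment over all 12003 genes and a threshold of 0.05. Fold changes are knockout over the mean of both controls unless a single control is named. edgeR 4.0.16 on the recovered reads, plain CPM, another pseudocount, a low-value filter, a replicate block, fewer groups in the fit and each library left out were alternatives. The fit was tested on simulated data. Symbols and positions came from GENCODE M21 (GRCm38), where 11935 identifiers have a symbol, and promoters from RefSeq. Every pair of libraries of a genotype differed by more than counting noise. Genes were named by rule: per role group the 3 smallest adjusted p, every member that rose, was not called or was called against 1 control only, and from each pathway list the 4 smallest adjusted p, up to 3 well-expressed genes not called and those moving against their list. Members and lists were chosen with earlier results of these data known.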

Additional observations from a re-analysis of the deposited data

How the results depend on the processing

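No called result changed direction under any of the 16 other settings; of the genes not called, Ifi47 turned to 0.03 (log2) without Vhl knockout 3, and Ticam1 (0.05) turned to -0.02 without library 1 of every genotype and to -5.29e-05 with plain CPM. Of the 34 members called against both controls, 20 were called in every setting in which they were tested, 12 of them in all 16 and 8 in all but the filter on low values, which left those 8 out. This was not counted over all genes. Called members numbered 38 with plain CPM (Irgm1, Lgals3bp, Parp14 and Zbp1 gained a call), 33 with edgeR (Gbp2 lost its call), 34 with a pseudocount of 0.25 or with the controls as 1 group, and 26 of the 38 members that averaged 5 normalized reads or more, whose median log2 fold change was -0.33 because low genes were left out. Leaving out 1 library gave 23 to 36 calls against both controls, 17 to 28 against floxed controls, 19 to 35 against Cre controls and 0 between the controls, with medians of -0.52 to -0.35, the lowest counts without Vhl knockout 3 for the first 2. Leaving out library 1 of every genotype, a setting chosen after seeing the data, gave 33, 27, 30 and 0 calls and a median of -0.44. With the replicate number as a block, 39 members were called against both controls (35 lower), 31 against floxed controls, 36 against Cre controls and 0 between the controls, and Cxcl10, Irf1, Irgm1, Oas2 and Oasl2 gained a call. Between genotypes, deviations of same-numbered libraries correlated at -0.0934 to 0.524, and those of differently numbered libraries at -0.443 to 0.382. Libraries numbered 1 correlated with each other at 0.202 to 0.524, and with other numbers at -0.443 to -0.03. Not every library numbered 2 or 3 correlated best with its own number, so the numbers were not taken to pair the pools. The filter on low values and the few reads of some members (2 for Ifit3b in Vhl knockout 3) limit what can be seen at this depth.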
